A study of Mus musculus with 6 samples.

Results

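The mitochondrial carriers of the Slc25 family were followed in RNA-seq of mouse duodenal epithelium with and without Esrra, the gene of estrogen-related receptor alpha. Members were taken by name, as every gene symbol beginning with Slc25a together with Ucp1, Ucp2, Ucp3, Mtch1 and Mtch2, without regard to level, which gave 49 of the 22611 genes in the expression table. RNA came from 3 wild type (WT) mice and 3 Esrra-/- littermates, with 1 library per mouse, and all of them ate a high-fat diet for about 8 weeks, so no value describes a chow diet. The deletion is germline, so every other tissue of these mice also lacks Esrra, and both sexes were used. The colony carried a Villin-CreERT2 transgene, and whether these 6 mice did, and their age, are not given in the sources used here. The epithelium was released from the first part of the small intestine with EDTA. It was collected whole or as separate crypts and villi, and the paper does not say which was done for RNA-seq. Markers of crypt cells and of enterocytes were both measured in each library.

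SLC25 proteins sit mostly in the inner mitochondrial membrane and exchange nucleotides, phosphate, carboxylates, amino acids, cofactors and protons between the cytosol and the matrix. They bring ADP and phosphate to ATP synthase, carry the metabolites of the malate-aspartate shuttle, which moves reducing equivalents into the matrix, and deliver acylcarnitines to beta-oxidation. The duodenal enterocyte, which absorbs dietary fat, iron and amino acids, uses many of these exchanges, and ESRRA is known as a transcriptional activator of genes of oxidative phosphorylation.

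Esrra itself was measured at 49.4, 73.5 and 103.6 FPKM (fragments scaled to transcript length and to the size of the library) in the WT libraries and at 10.4, 9.42 and 8.72 FPKM in the Esrra-/- libraries, a log2 fold change of −2.92 ± 0.26 (SE, limma, adjusted p = 0.0215). It was called lower in 16 of 16 alternatives at −3.19 to −2.60, with limma adjusted p from 0.00505 to 0.19, above 0.05 among others without WT replicate 2 (0.185) or WT replicate 3 (0.0772), or without Esrra-/- replicate 1 (0.148) or Esrra-/- replicate 3 (0.107). An exon of Esrra overlaps one of Trmt112 on the opposite strand, so whether the fragments counted in the Esrra-/- libraries came from Esrra cannot be told from gene-level values. The 6 enterocyte markers together reached 20430 to 32980 FPKM in WT and 26540 to 33220 FPKM in Esrra-/- libraries, while the 5 mesenchymal markers summed to at most 1.73 FPKM and the 5 immune markers to at most 24.4 FPKM. The Paneth cell markers Lyz1 and Defa24 summed to 6429 to 13520 FPKM in WT and 1271 to 5663 FPKM in Esrra-/- libraries, without overlap, and their part in the carrier values was not tested. WT replicate 3 and Esrra-/- replicate 3 lacked Y-linked transcripts (sums of 0.0487 and 0.222 FPKM against 27.3 to 46.7 in the other 4 libraries). In each genotype replicate 3 also had the highest sum of FPKM over all genes, 999902 in WT and 901171 in Esrra-/-, where the other 4 libraries had 707094 to 818406. In bulk epithelium, fewer cells of a type and less RNA per cell cannot be told apart.

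The carriers spanned the range from undetected to among the abundant transcripts of the epithelium. In WT libraries 10 members had a mean above 100 FPKM, 12 lay between 10 and 100, 15 between 1 and 10, and 12 under 1. Together they took 0.414% to 0.496% of the FPKM of a library, and Slc25a5, Slc25a3 and Ucp2 alone made up 53.2% to 61.1% of that. Slc25a5, the main ADP/ATP translocase of proliferating and epithelial tissues, stood first at 1334 ± 320 FPKM (SD, n = 3), and Slc25a3, the phosphate carrier, second at 659 ± 121 FPKM (SD, n = 3). The ranges of these libraries did not overlap with each other or with the next gene. Ucp2 followed at 394 ± 121 FPKM and Mtch2 at 310 ± 57.6 FPKM (SD, n = 3), and their ranges overlapped. From Slc25a10 at rank 5 to Mtch1 at rank 14 every gene overlapped its neighbour, and so did those from Slc25a28 at rank 15 to Slc25a16 at rank 25.

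**Figure D1:**
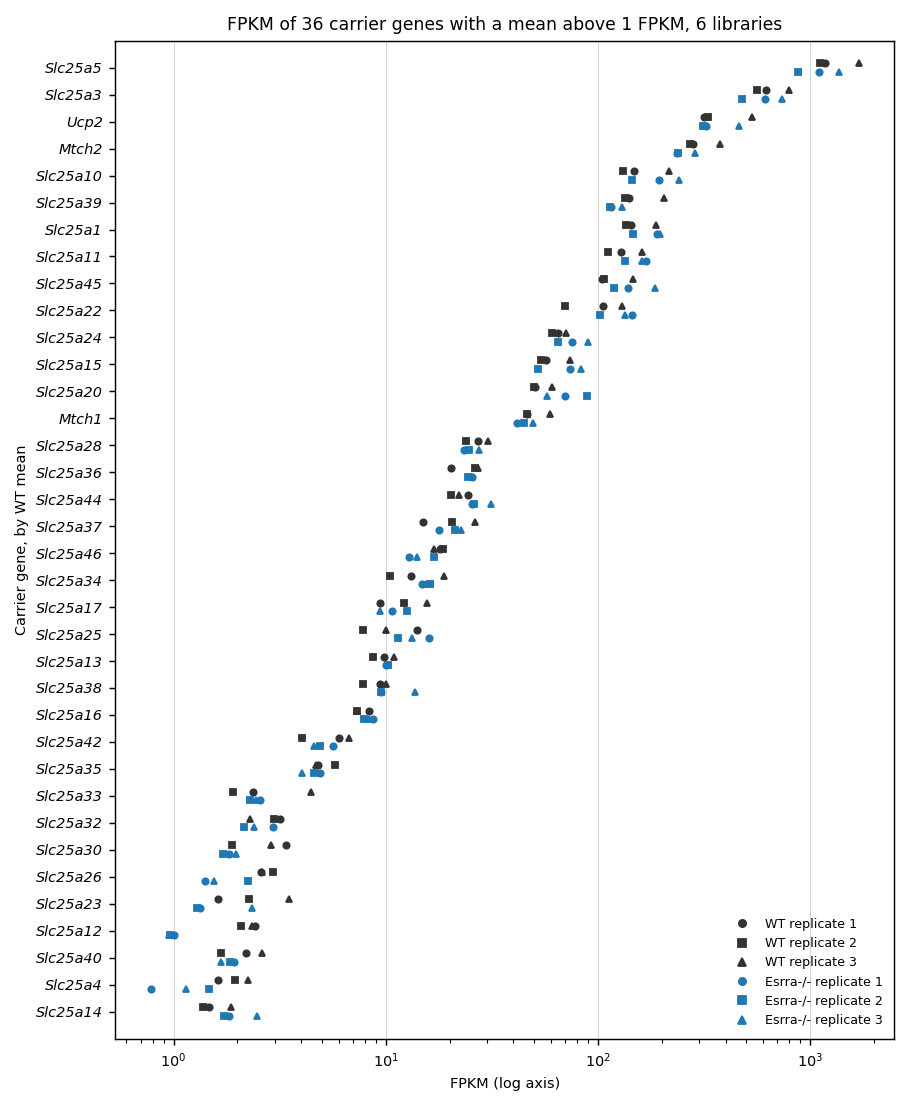
FPKM (log axis) of 36 of the carriers with a mean above 1 FPKM, ordered by WT mean, with 1 point per library, WT in black and Esrra-/- in blue. Levels run from about 1 FPKM to 1702 FPKM for Slc25a5, and Slc25a12 is a low gene whose blue points all lie near 1 FPKM, left of its black points.

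Several members, some of them known from other organs, were at or near 0. Ucp1, the proton carrier of brown fat, and Slc25a41, an ATP-Mg carrier, were listed at 0 in all 6 libraries, and Slc25a21 at 0 in 5 of 6. Slc25a31, the testis translocase, had a WT mean of 0.0121 FPKM and Slc25a18, a glutamate carrier, one of 0.101 FPKM. The other untested members also had WT means under 1 FPKM, 0.650 for Slc25a43, whose substrate is undefined, 0.504 for Slc25a47, 0.228 for the basic amino acid carrier Slc25a29, 0.214 for Slc25a27, a relative of the uncoupling proteins, 0.0971 for Slc25a48 and 0.0355 for the ornithine carrier Slc25a2, and their genotypes overlapped. Of 4 fat cell markers, Adipoq and Lep were at 0 in every library too, and with Plin1 and Cidea the sum was at most 0.316 FPKM in WT and 0.036 FPKM in Esrra-/- libraries. Ucp3 was listed at 0.0480, 0.0487 and 0.0546 FPKM in WT and at 0 in the 3 Esrra-/- libraries, values so low that the gene was below the filter and the number of fragments behind them is unknown.

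Of the 49 members, 37 had a mean above 1 FPKM over the 6 libraries and were tested with limma on log2(FPKM + 0.1), a scale that understates the change of low genes. Calls of lower or higher expression in Esrra-/- required a log2 fold change of more than 0.58 either way together with an unadjusted p under 0.05. The carriers that fell were Slc25a12, Slc25a4 and Slc25a26, from separate roles, and none rose. These 3 were 8.11% of the members tested, where 3.28% of all 10596 genes tested were called lower and 1.35% called higher. Without Esrra-/- replicate 1 or without Esrra-/- replicate 3 the count was 1 of 37, where 252 of 10599 and 337 of 10654 of all genes were called lower. After scaling to the sum of FPKM the count was 1, with 134 of all genes called lower and 269 higher. Counting by unadjusted p alone gave the same 3 lower and 0 higher members against 6.49% lower and 4.3% higher of all genes, and no member passed an adjusted p of 0.05 in limma (smallest 0.178). All 3 lay between 1 and 3 FPKM in WT, Slc25a12 passed the filter only through its WT values (its Esrra-/- mean was 0.976 FPKM), and the 12 members at 1 FPKM or less were not tested.

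Slc25a12, the aspartate/glutamate carrier also called aralar or AGC1, fell the most. It is the form best known from brain, heart and skeletal muscle, and lies at chr2:71109120-71205806 on the minus strand (mm9). Its level was 2.41, 2.08 and 2.33 FPKM in WT and 1.00, 0.967 and 0.956 FPKM in Esrra-/- libraries. Every Esrra-/- library stood below every WT library, and the Esrra-/- mean of 0.976 ± 0.0254 FPKM was 42.9% of the WT mean of 2.27 ± 0.175 FPKM (SD, n = 3). The log2 fold change was −1.14 ± 0.21 (SE, limma, unadjusted p = 0.000844, adjusted p = 0.178), which ranked 50 by p among the genes tested. Of the 31-base stretches of its transcripts, 0.682% occur in other coding genes of the annotation. The two-sided exact permutation test gave p = 0.1, the smallest that 3 against 3 libraries allow.

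Slc25a13, citrin or AGC2, exchanges the same substrates and is the form of liver and other epithelia. It was looked at after its values were seen. It was at 9.82, 8.68 and 10.9 FPKM in WT and 10.0, 10.3 and 10.2 FPKM in Esrra-/- libraries, a log2 fold change of 0.06 ± 0.12 (SE, limma, adjusted p = 0.886). The sign of that small value turned to −0.02 without WT replicate 2. The log2 ratio of Slc25a12 to Slc25a13 was −2.06 ± 0.107 in WT and −3.26 ± 0.053 in Esrra-/- libraries (SD, n = 3), without overlap, so that Slc25a12 made up 18.8% of the FPKM of the pair in WT and 8.75% in Esrra-/-. The difference of −1.20 had an exact permutation p of 0.1, or 0.35 adjusted over the 7 paralogue pairs compared. The ratio of Mtch1 to Mtch2 was the other one without overlap, by 0.12 higher in Esrra-/- libraries and with the same exact permutation p, and the other 5 pairs overlapped.

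The malate-aspartate shuttle to which these carriers belong also needs the oxoglutarate/malate carrier Slc25a11 and cytosolic and mitochondrial malate dehydrogenases and aspartate transaminases. Slc25a11 was at 129, 111 and 162 FPKM in WT and 169, 134 and 161 FPKM in Esrra-/- libraries, and the genotypes overlapped (log2 fold change 0.22 ± 0.19, limma adjusted p = 0.707). Got2, the mitochondrial transaminase, was at 54.8, 45.4 and 61.4 FPKM in WT and 31.7, 37.2 and 36.1 FPKM in Esrra-/- libraries, and fell by 0.61 ± 0.15 on the log2 scale (SE, limma, unadjusted p = 0.00479, adjusted p = 0.29), with no overlap. Without WT replicate 3 its value was −0.51 and without Esrra-/- replicate 1 it was −0.54, both short of the fold threshold, as were −0.50 after scaling to the sum of FPKM and −0.54 without both libraries lacking Y-linked transcripts. Got1, the cytosolic transaminase, was at 79.5, 60.2 and 77.8 FPKM in WT and 44.8, 32.1 and 66.6 FPKM in Esrra-/- libraries, and its genotypes overlapped. It was called lower at −0.65 ± 0.27 (SE, limma, unadjusted p = 0.0443, adjusted p = 0.445). That call was lost without WT replicate 1 (−0.58), WT replicate 3 (−0.60), Esrra-/- replicate 1 (−0.64) or Esrra-/- replicate 2 (−0.40), with no filter, with no mean-variance trend and after scaling to the sum of FPKM (−0.54), 7 of 16 alternatives in all.

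Neither malate dehydrogenase passed the test. Mdh1 averaged 600 ± 101 FPKM in WT and 445 ± 99.95 FPKM in Esrra-/- libraries (SD, n = 3, log2 fold change −0.44), a value that became −0.62 and was called lower without Esrra-/- replicate 3. Mdh2 averaged 1264 ± 285 and 1214 ± 233 FPKM (SD, n = 3, log2 fold change −0.05). Of the 12 tested enzymes of the malate-aspartate, glycerol phosphate and carnitine shuttles and of citrate export, 2 were called lower, Got1 and Got2, and 0 higher (16.7% lower, against 3.28% lower and 1.35% higher of all genes). Both calls were lost without WT replicate 3, without Esrra-/- replicate 1 or after scaling to the sum of FPKM. The 12 enzymes had a median log2 fold change of −0.02. Those of the glycerol phosphate dehydrogenases Gpd1 and Gpd2 were 0.24 and 0.05, and those of Acly and Me1, which use exported citrate and malate, were −0.12 and 0.46, none past the test.

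**Figure D2:**
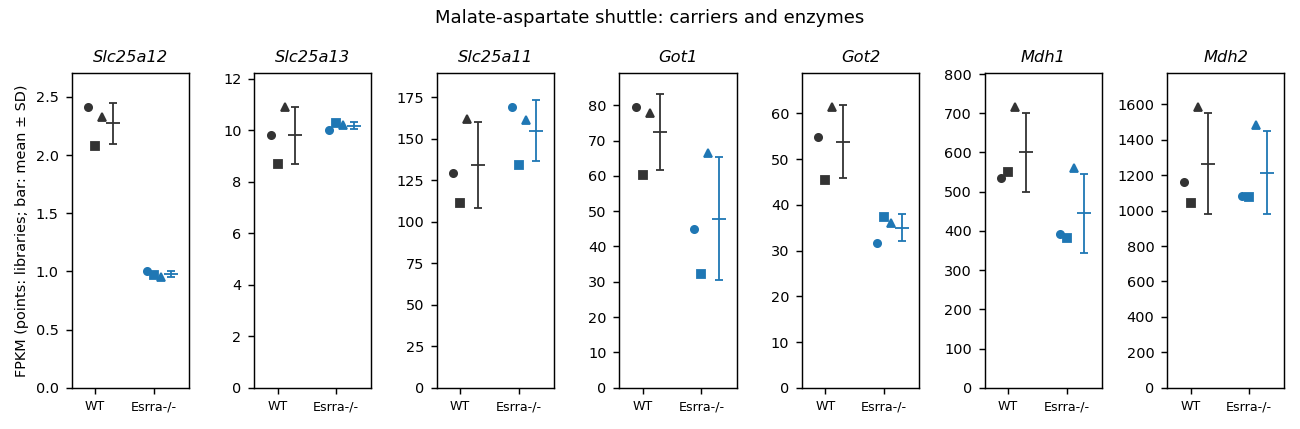
FPKM of 3 carriers and 4 enzymes of the malate-aspartate shuttle, each on its own linear axis from 0, with 1 point per library (circle, square and triangle for replicates 1, 2 and 3) and the mean ± SD beside them. Slc25a12 and Got2 show WT (black) above Esrra-/- (blue) with no overlap, whereas Slc25a13, Slc25a11 and Mdh2 overlap.

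Slc25a4, the ADP/ATP translocase of heart and muscle (ANT1), lies at chr8:47292151-47296638 on the minus strand (mm9). It was at 1.63, 1.95 and 2.24 FPKM in WT and 0.781, 1.47 and 1.15 FPKM in Esrra-/- libraries. The genotypes did not overlap, and the mean went from 1.94 ± 0.305 to 1.13 ± 0.346 FPKM (SD, n = 3), 58.5% of WT. The log2 fold change of −0.75 ± 0.29 (SE, limma, unadjusted p = 0.0341, adjusted p = 0.422) was no longer called when WT replicate 2, WT replicate 3, Esrra-/- replicate 1 or Esrra-/- replicate 3 was left out (−0.78 to −0.53). Acta1, the skeletal muscle actin, took most of a muscle marker sum of 4.13 to 18.9 FPKM in WT and 7.12 to 34.3 FPKM in Esrra-/- libraries, while Ckm and Myh6 averaged under 0.1 FPKM each, and their part in the value of Slc25a4 was not tested.

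The abundant carriers that serve ATP synthesis, Slc25a5 and Slc25a3, did not pass the test. Slc25a5 was at 1179, 1119 and 1702 FPKM in WT and 1105, 874 and 1371 FPKM in Esrra-/- libraries (log2 fold change −0.25 ± 0.27, limma adjusted p = 0.759). Slc25a4 was 0.145% of the FPKM of both translocases in WT and 0.101% in Esrra-/-, a ratio whose genotypes overlapped (exact permutation p = 0.3, or 0.42 adjusted over 7 pairs). No 31-base stretch of its transcripts occurs in another coding gene of the annotation. Slc25a3 was at 619, 562 and 795 FPKM in WT and 613, 476 and 742 FPKM in Esrra-/- libraries, a log2 fold change of −0.12 ± 0.24 (limma adjusted p = 0.882), which turned to 0.03 without WT replicate 3 and to 0.05 without Esrra-/- replicate 2. Of the ATP-Mg/phosphate carriers, which set the adenine nucleotide content of the matrix, Slc25a24 averaged 65.6 and 76.7 FPKM, Slc25a25 10.6 and 13.6 FPKM and Slc25a23 2.46 and 1.66 FPKM in WT and Esrra-/- libraries, all with overlapping genotypes. Slc25a25 was called higher when WT replicate 1 was left out.

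Slc25a26 brings S-adenosylmethionine, the methyl donor for mitochondrial RNA, DNA and protein methylation, into the matrix, and lies at chr6:94450308-94554642 on the plus strand (mm9). It was at 2.59, 2.96 and 2.61 FPKM in WT and 1.41, 2.24 and 1.55 FPKM in Esrra-/- libraries. The highest Esrra-/- library stayed below the lowest WT library, and the mean went from 2.72 ± 0.208 to 1.73 ± 0.441 FPKM (SD, n = 3), 63.8% of WT. The log2 fold change was −0.64 ± 0.22 (SE, limma, unadjusted p = 0.0212, adjusted p = 0.387). The call was lost without WT replicate 2, Esrra-/- replicate 1 or Esrra-/- replicate 3 (−0.58 to −0.52). An exon of Slc25a26 overlaps one of Lrig1 on the opposite strand, and the kit named in the labels, Illumina TruSeq RNA v2, does not mark strand, so reads of the overlap cannot be told apart. This applies to 10 of the 49 members.

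The other 7 nucleotide and cofactor carriers were low to moderate in level and none passed the test. The folate carrier Slc25a32 averaged 2.82 and 2.50 FPKM (log2 fold change −0.17) and the coenzyme A carrier Slc25a42 5.58 and 5.06 FPKM (−0.11). The pyrimidine nucleotide carriers Slc25a33 and Slc25a36 averaged 2.91 and 24.6 FPKM in WT and 2.44 and 25.1 FPKM in Esrra-/- libraries. The peroxisomal cofactor carrier Slc25a17 averaged 12.4 and 10.9 FPKM and Slc25a16 7.64 and 8.34 FPKM. Over this role 6 of the 8 log2 fold changes were negative, with a median of −0.16.

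For the 3 carriers that fell, the 250 bases upstream of the annotated start are shown, because ESRRA binds the letters AAGGTCA, called the short site here, and TCAAGGTCA, called the long site, which contains it. The mm9 genome with GENCODE M1 starts gave chr2:71205807-71206056 (minus strand) for Slc25a12, chr8:47296639-47296888 (minus strand) for Slc25a4 and chr6:94450058-94450307 (plus strand) for Slc25a26, each written 5′ to 3′ along its gene with no capitals because neither site occurs on either strand.
Slc25a12: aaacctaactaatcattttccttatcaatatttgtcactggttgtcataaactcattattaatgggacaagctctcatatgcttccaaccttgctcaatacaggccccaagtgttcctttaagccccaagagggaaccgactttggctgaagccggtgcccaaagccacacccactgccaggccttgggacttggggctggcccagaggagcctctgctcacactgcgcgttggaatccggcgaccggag
Slc25a4: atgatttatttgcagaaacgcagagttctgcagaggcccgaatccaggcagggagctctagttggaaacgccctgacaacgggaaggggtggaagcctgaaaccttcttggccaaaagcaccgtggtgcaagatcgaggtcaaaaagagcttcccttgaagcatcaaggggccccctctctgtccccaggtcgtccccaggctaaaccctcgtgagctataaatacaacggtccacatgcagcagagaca
Slc25a26: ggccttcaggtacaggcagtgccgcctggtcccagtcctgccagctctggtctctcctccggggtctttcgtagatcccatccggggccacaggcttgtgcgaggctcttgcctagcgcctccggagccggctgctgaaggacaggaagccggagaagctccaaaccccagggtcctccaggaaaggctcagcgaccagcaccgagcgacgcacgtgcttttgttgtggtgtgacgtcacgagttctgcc

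The short site was found in 3 of the 49 members (6.12%) when 250 bases before to 50 bases after every coding start were searched on both strands, against 6.34% of all 22232 protein-coding genes. Among genes tested it was in 8.11% of the 37 members, 6.63% of all 10546 with a window and 17.4% of the 86 oxidative phosphorylation genes. The long site was in 0 of the 49 members, 0.603% of protein-coding genes and 4.65% of the oxidative phosphorylation genes. Genes with several starts have more windows, and per window the short site was in 2.75% of 109 windows of members, 3.84% of all windows and 14.1% of those of oxidative phosphorylation genes. The 3 carrier stretches are shown with the short site, or its reverse complement, in capitals. They lie at chr2:90687088-90687148 (plus strand) for Mtch2, chr4:141179835-141179895 (minus strand) for Slc25a34 and chr11:102268149-102268209 (minus strand) for Slc25a39, where it belongs to 1 of 8 coding starts. A match of letters is a description and not a binding site, and the lack of a match is not a lack of binding. The authors mapped ESRRA binding by ChIP-seq in duodenal villi of chow-fed mice, and those regions were not used here.
Mtch2: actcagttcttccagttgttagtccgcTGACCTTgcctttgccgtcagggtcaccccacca
Slc25a34: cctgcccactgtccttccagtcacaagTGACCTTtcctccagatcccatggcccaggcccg
Slc25a39: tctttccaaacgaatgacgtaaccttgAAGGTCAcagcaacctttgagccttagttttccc

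Of these 3, Slc25a39, a glutathione carrier needed for mitochondrial iron-sulfur enzymes, had genotypes that did not overlap. It was at 141, 135 and 206 FPKM in WT and 115, 114 and 131 FPKM in Esrra-/- libraries, a log2 fold change of −0.40 ± 0.20 (SE, limma, unadjusted p = 0.0822, adjusted p = 0.526) that did not pass. Mtch2, an outer membrane member that inserts proteins into that membrane, was at 280.0, 273 and 376 FPKM in WT and 236, 238 and 288 FPKM in Esrra-/- libraries (−0.28 ± 0.19, limma adjusted p = 0.627). Slc25a34, a carrier of undefined substrate, averaged 14.2 and 15.5 FPKM (0.17).

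None of the remaining iron and outer membrane members passed the test. The mitoferrins, which import iron for haem and iron-sulfur clusters, averaged 20.6 FPKM in both genotypes for Slc25a37 and 27.3 and 25.2 FPKM for Slc25a28. Slc25a40, the paralogue of Slc25a39, averaged 2.16 and 1.81 FPKM (log2 fold change −0.22). Mtch1, a relative of Mtch2, was at 46.1, 46.4 and 59.4 FPKM in WT and 41.5, 44.9 and 49.5 FPKM in Esrra-/- libraries (−0.16 ± 0.15, limma adjusted p = 0.741). The outer membrane member Slc25a46, which acts in mitochondrial shape and was named after its values were seen, averaged 17.9 ± 0.813 and 14.6 ± 2.02 FPKM (SD, n = 3) without overlap, at −0.30 and a limma adjusted p of 0.485.

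Carboxylate carriers supply citrate for lipid synthesis and malate and succinate for exchange, and Slc25a10, Slc25a1 and Slc25a11 were among the abundant members. The citrate carrier Slc25a1 was at 144, 135 and 188 FPKM in WT and 191, 146 and 197 FPKM in Esrra-/- libraries (log2 fold change 0.20 ± 0.20, limma adjusted p = 0.746). The dicarboxylate carrier Slc25a10 was at 147, 132 and 217 FPKM in WT and 195, 146 and 240 FPKM in Esrra-/- libraries (0.23 ± 0.26, limma adjusted p = 0.77). Slc25a35, of undefined substrate, averaged 5.08 and 4.52 FPKM (−0.17). The role as grouped here includes Slc25a34 and Slc25a35, both of undefined substrate. In it 4 of 5 log2 fold changes were positive, with a median of 0.20, and the genotypes of every member overlapped.

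Amino acid and carnitine carriers had positive log2 fold changes in 7 of 8 tested members, all but Slc25a12, where 5754 of all 10596 genes tested were positive. None of the 7 was called, and Slc25a13 turned to −0.02 without WT replicate 2. Slc25a20, which carries acylcarnitines into the matrix for beta-oxidation, was at 50.7, 50.1 and 60.7 FPKM in WT and 70.3, 89.1 and 57.8 FPKM in Esrra-/- libraries, so that Esrra-/- replicates 1 and 2 lay above and replicate 3 within the WT range. Its log2 fold change was 0.41 ± 0.19 (SE, limma, unadjusted p = 0.0634, adjusted p = 0.487), and it was called higher, at 0.65, in 1 of 16 alternatives, the one without both libraries that lack Y-linked transcripts. Of the carnitine shuttle enzymes tested, Cpt1a, Cpt2 and Crat had log2 fold changes of 0.02, 0.16 and 0.14 and Cpt1b one of −0.06, with overlapping genotypes. Cpt1c, not tested, averaged 0.0925 FPKM in WT and 0.0352 FPKM in Esrra-/- libraries.

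Slc25a22, a glutamate carrier, was at 106, 69.9 and 130 FPKM in WT and 144, 102 and 134 FPKM in Esrra-/- libraries (log2 fold change 0.35 ± 0.26, limma adjusted p = 0.653). Slc25a45, grouped here with the amino acid carriers, was at 105, 107 and 146 FPKM in WT and 139, 119 and 186 FPKM in Esrra-/- libraries (0.30 ± 0.22, limma adjusted p = 0.646). The ornithine carrier Slc25a15 of the urea cycle averaged 61.7 and 69.8 FPKM, the glycine carrier Slc25a38 needed for haem 9.07 and 10.9 FPKM, with overlapping genotypes. Slc25a44, a branched-chain amino acid carrier named after its values were seen, averaged 22.3 ± 1.99 and 27.5 ± 3.204 FPKM (SD, n = 3) and was the 1 member with all Esrra-/- values above all WT values (0.30, limma adjusted p = 0.485).

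Among the uncoupling proteins and their relatives, Ucp2 was at 317, 332 and 534 FPKM in WT and 324, 312 and 464 FPKM in Esrra-/- libraries, and replicate 3 was the highest in both genotypes. Its log2 fold change of −0.09 ± 0.27 (SE, limma, adjusted p = 0.924) turned to 0.15 without WT replicate 3 and to 0.02 without Esrra-/- replicate 2. It was 0.03 when libraries were scaled to their sum of FPKM, which moved the median of all genes from 0.03 to 0.14. Slc25a30 averaged 2.72 and 1.84 FPKM (−0.51) and Slc25a14 1.57 and 2.01 FPKM (0.33), and neither passed, though Slc25a30 was called lower without WT replicate 2.

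**Figure D3:**
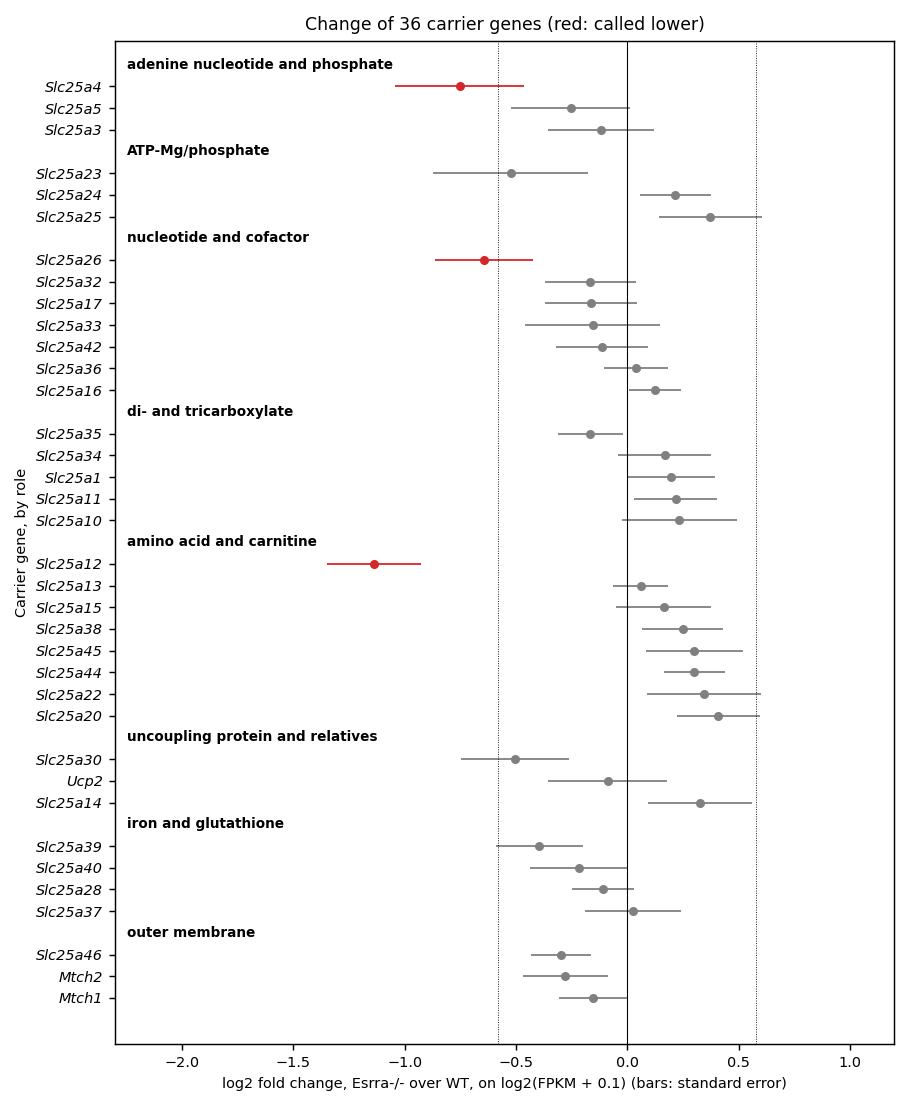
Log2 fold change, Esrra-/- over WT on log2(FPKM + 0.1), of 36 of the carriers tested, grouped by role, with bars of 1 standard error and dotted lines at the fold threshold of 0.58. The 3 red points, Slc25a4, Slc25a26 and Slc25a12, are the carriers called lower, and no point lies right of the upper line.

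Over the whole family the log2 fold changes were spread around 0, 20 negative and 17 positive, with a median of −0.11 and quartiles of −0.25 and 0.22. Over all genes tested the median was 0.03, the quartiles −0.17 and 0.19, and 45.7% were negative. The family median was 0.10 without WT replicate 3 and 0.00 without Esrra-/- replicate 2. Scaling to the sum of FPKM moved both medians upward, to 0.01 for the family and 0.14 for all genes. The 3 Esrra-/- values were each below the lowest WT value for 5 of the 37 members tested (13.5%, Slc25a4, Slc25a12, Slc25a26, Slc25a39 and Slc25a46) and each above the highest for Slc25a44 (2.7%), where 9.14% and 8.45% of all genes did so.

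The genes of oxidative phosphorylation, measured in the same libraries, gave another distribution. They were taken by symbol, as Sdha to Sdhd, Cyc1 and those beginning with Nduf and a, b, c, s or v, Uqcr, Cox4 to Cox8 or Atp5. That rule also takes in assembly factors such as Ndufaf1, and Cox4nb by its name alone, and the promoter search used the same list. Of 86 tested, 50 (58.1%) were called lower and 1 higher, Cox6a2 at 0.59, and 84 had values below 0. Their median log2 fold change was −0.61 and the quartiles were −0.73 and −0.47. The difference between both lists was described by these counts and not tested.

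**Figure D4:**
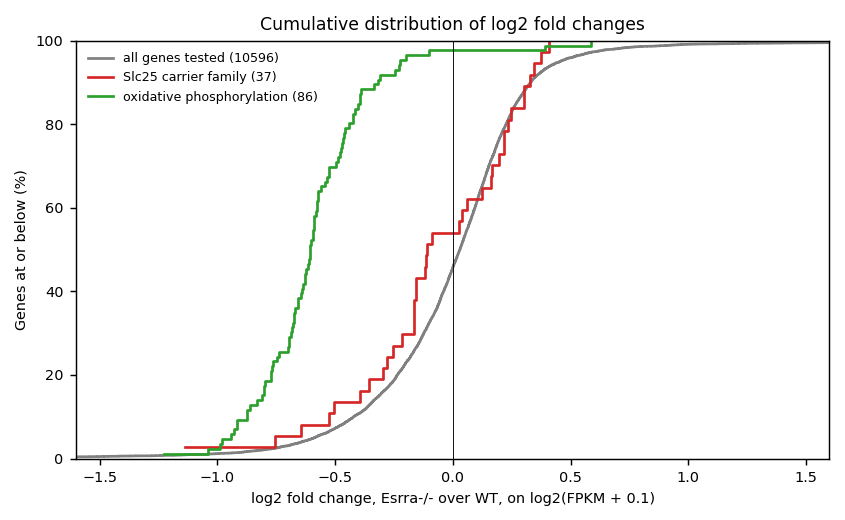
Cumulative share (%) of genes at or below each log2 fold change, Esrra-/- over WT, for 37 carriers (red), 86 oxidative phosphorylation genes (green) and all 10596 genes tested (grey). The red line crosses 50% at −0.11, near the grey line, and the green line at −0.61.

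The level of the carriers also differed between libraries of 1 genotype. WT replicate 3 held the highest value of 18 of the 37 carriers tested and the lowest of 0, and WT replicate 2 the lowest of 16. The median deviation of the carriers from their means was −0.02, −0.16 and 0.27 in the WT and −0.01, −0.09 and 0.07 in the Esrra-/- libraries, so the genotypes overlapped. For oxidative phosphorylation genes it was 0.11, 0.16 and 0.65 in WT and −0.42, −0.45 and −0.06 in Esrra-/- libraries, which did not overlap.

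**Figure D5:**
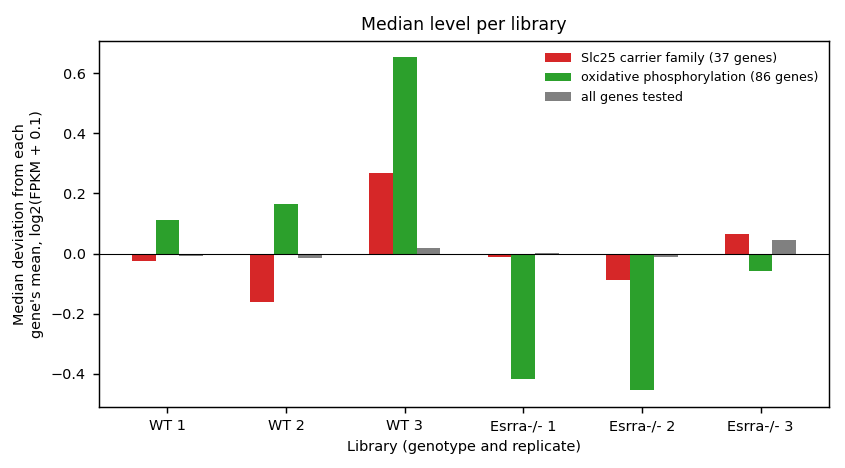
Median deviation, in each of the 6 libraries, of a gene's log2(FPKM + 0.1) from its mean over all libraries, for 37 carriers, 86 oxidative phosphorylation genes and all genes tested. The green bars are positive in the 3 WT and negative in the 3 Esrra-/- libraries, whereas the red bars take both signs in both genotypes and are highest in WT replicate 3.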

How the data were processed

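Transcripts of the duodenal epithelium were sequenced from 3 WT and 3 Esrra-/- mice, 1 library each. The authors deposited FPKM for 22611 genes in the 6 libraries. The submitters' processing notes name FastQC 0.11.3, kallisto 2.1.0, DESeq2 2.2.1 and mm9, and the annotation is not given in the sources used here. A second table holds the authors' own comparison (mean normalized counts, fold changes, test statistics and p-values) and was not used. FPKM do not show the number of fragments, so the depth of each library and the counting error of low genes are unknown.

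Because the values are FPKM, log2(FPKM + 0.1) of the 10596 genes with a mean above 1 was tested with limma 3.58.1 in R 4.3.3 (lmFit, eBayes with trend, two-sided, Benjamini-Hochberg over all genes tested), after the steps had been checked on simulated data. Paralogue ratios and single genes were also compared with exact permutation tests. Promoter letters and positions came from mm9 with GENCODE M1, in which all 49 members were found.

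The members and lists were chosen with earlier results of these data known. Values per library are given for members with an unadjusted p under 0.05, the 10 most abundant in WT, Ucp1, Ucp2, Ucp3, Mtch1, Mtch2 and Slc25a20, and for other genes with an unadjusted p under 0.05 in the transport and shuttle lists, plus Mpc1, Mpc2 and Vdac1. Slc25a13, Slc25a44, Slc25a46, Slc25a25, Mdh1 and Cox6a2 were added after their values were seen, and other carriers and shuttle enzymes are given by means or log2 fold changes. The alternatives were a pseudocount of 1, no filter, FPKM above 1 in all libraries, quantile and median-ratio scaling, no trend, a replicate block, a Y-linked covariate, an adjusted p threshold and each library left out. Scaling to the sum of FPKM and leaving out both libraries without Y-linked transcripts were chosen after seeing the data. The values of 1 tested member are not reported here, in text or figures of single genes, while the counts and medians of the family include it.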

Additional observations from a re-analysis of the deposited data

How the results depend on the processing

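At the unadjusted threshold Slc25a12 was called lower under all 15 other settings and library sets in which it was tested (log2 fold change −1.20 to −0.73, limma adjusted p 0.063 to 0.586) and was not tested when FPKM above 1 was required in all libraries. Slc25a26 lost its call in 7 of 16 alternatives and Slc25a4 in 8 of 15. The count of carriers called lower was 1 with a pseudocount of 1, FPKM above 1 in all libraries, quantile normalization, scaling to the sum of FPKM, or without both libraries lacking Y-linked transcripts, 0 at an adjusted p under 0.05, and 1 to 3 with single libraries left out. In the first 3 of these settings 251 of 10596, 315 of 9727 and 324 of 10596 of all genes were called lower. Without both libraries lacking Y-linked transcripts it was 346 of 10665, and 252 to 533 with single libraries left out. The count called higher was 1 without both libraries lacking Y-linked transcripts (Slc25a20, with 212 of all genes) and 0 to 1 with single libraries left out (143 to 214 of all genes). The family median was 0.095 without both of those libraries and −0.12 to 0.097 with single libraries left out, with 15 to 22 negative values. With no filter 4 carriers were called lower, as were 399 of all 22611 genes. The added carrier was Ucp3 from values under 0.1 FPKM, the 1 carrier that then passed an adjusted p of 0.05 in limma. Slc25a3 turned to 0.021 and Ucp2 to 0.001 under quantile normalization, Ucp2 to 0.028 under scaling to the sum of FPKM, Slc25a3 to 0.026 and Ucp2 to 0.152 without WT replicate 3, Slc25a3 to 0.049 and Ucp2 to 0.017 without Esrra-/- replicate 2, and Slc25a13 to −0.023 without WT replicate 2. With single libraries left out Slc25a3 ran from −0.27 to 0.049, Ucp2 from −0.27 to 0.152 and Slc25a13 from −0.023 to 0.139. Over the same fits Slc25a5 ran from −0.415 to −0.066, Slc25a39 from −0.507 to −0.202 and Mtch2 from −0.371 to −0.13. Slc25a1 ran from 0.101 to 0.34, Slc25a10 from 0.062 to 0.445, Slc25a22 from 0.096 to 0.542 and Slc25a45 from 0.125 to 0.456. Over all genes 348 were called lower and 143 higher, but 134 and 269 after scaling to the sum of FPKM. After the genotype mean of each gene tested was subtracted, same-numbered libraries correlated at 0.012, 0.263 and 0.376. WT replicates 2 and 3 correlated best with the Esrra-/- library of the same number, but WT replicate 1 with Esrra-/- replicate 2 (0.182). The numbers were therefore not taken as pairs. With the replicate block 3 carriers were called lower and 0 higher (441 and 192 of all genes), the carrier median was −0.109, and Esrra, Slc25a12, Slc25a4, Slc25a26, Got1, Got2, Tspo and Mpc2 kept their calls, with an adjusted p of 0.0709 for Esrra.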

Other observations

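Solutes also enter and leave mitochondria by routes outside the Slc25 family, and a list of 24 such genes (porins, sideroflexins, the calcium uniporter and exchangers, ABC transporters and others) had 18 tested members, of which 1 (5.56%) was called lower and 0 higher in limma, where 3.28% and 1.35% of all genes were, with a median log2 fold change of −0.05. Mpc1 and Mpc2 were planned for this list but are not in these counts, because they are listed under older symbols. Of these 2 genes, 1 was called lower, as given below. Among the 18 counted, the one called was Tspo, an outer membrane protein that binds cholesterol and porphyrins, at 22.1, 28.4 and 32.8 FPKM in WT and 17.6, 14.7 and 21.5 FPKM in Esrra-/- libraries (−0.63 ± 0.20, limma, unadjusted p = 0.0156, adjusted p = 0.365). It lost the call without WT replicate 3 (−0.50), without Esrra-/- replicate 2 (−0.49) and after scaling to the sum of FPKM (−0.51). Vdac1, the main porin of the outer membrane, was at 141, 142 and 192 FPKM in WT and 108, 109 and 137 FPKM in Esrra-/- libraries, without overlap, at −0.42 (limma adjusted p = 0.48).

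The mitochondrial pyruvate carrier, a heterodimer, appears in the table under older symbols, which were looked up after the files had been seen. Mpc2 (listed as Brp44) was at 48.6, 48.03 and 70.6 FPKM in WT and 33.1, 31.5 and 35.1 FPKM in Esrra-/- libraries, and fell by 0.72 ± 0.18 on the log2 scale (SE, limma, unadjusted p = 0.00421, adjusted p = 0.289), with no overlap. Without WT replicate 3 its value was −0.54, short of the fold threshold. Mpc1 (listed as Brp44l) was at 108, 99.7 and 140 FPKM in WT and 87.0, 65.2 and 109 FPKM in Esrra-/- libraries, at −0.43 ± 0.23 (limma adjusted p = 0.537), and did not pass. Mcart1, now Slc25a51, the NAD carrier, stood outside the naming rule for the same reason, with means of 27.7 and 29.7 FPKM (log2 fold change 0.11), as did Mcart6, now Slc25a53, with 0.609 and 0.511 FPKM.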
